A study of Mus musculus with 54 samples.

Results

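Receptor activity-modifying proteins (RAMPs) are small single-pass membrane proteins, and the genes described here are the 3 RAMP genes (Ramp1, Ramp2 and Ramp3), Calcrl, which encodes the calcitonin receptor-like receptor they escort, and Adm, which encodes the peptide ligand adrenomedullin. They were taken by symbol from the table of read counts, 5 of 24421 genes, in mouse hematopoietic stem cells (HSC). The set was chosen by measured values: Ramp3 was among the strongest risers when dmPGE2 was given before radiation and cells were taken at 1 h. Values of that comparison are therefore given as a description, with no test. All 5 genes passed the filter on low counts, which left 14320 genes, but Adm and, without dmPGE2, Ramp3 were close to 0 reads.

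The mice were C57BL/6 with the green fluorescent reporter ZsGreen in the Fgd5 locus, a gene expressed in HSC. Each received a single injection under the skin of 16,16-dimethyl prostaglandin E2 (dmPGE2), a form of prostaglandin E2 that resists breakdown, or of its ethanol vehicle in saline, and the irradiated mice received 8.53 Gy 30 min later. HSC were sorted from bone marrow by surface markers and ZsGreen at 1 h or 24 h, and each library was made from the cells of 1 mouse per the labels. The groups were non-irradiated mice given vehicle (15 libraries of both times, here the baseline), non-irradiated mice given dmPGE2 at 1 h (7), irradiated mice given vehicle at 1 h (8) and 24 h (8), and irradiated mice given dmPGE2 at 1 h (8) and 24 h (8). All mice, controls included, carried the reporter and were injected with ethanol in saline. The age of the mice is not given in the sources used here.

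CALCRL reaches the cell surface together with a RAMP, and the RAMP sets which peptide the receptor prefers. With RAMP1 it forms the receptor for calcitonin gene-related peptide (CGRP), and with RAMP2 or RAMP3 it forms the adrenomedullin receptors, all of which couple mainly to Gs and raise cyclic AMP. RAMP3 differs from RAMP2 in its cytoplasmic tail, which can bind sorting proteins such as NSF and steer the internalised receptor back to the surface. Calcrl is known to be expressed in HSC and in endothelial cells, and Ramp2 is known mainly from endothelium.

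Library totals ranged from 15049364 to 26217041 assigned reads. Of the defining HSC transcripts, Fgd5 had a mean of 94.4 CPM (counts per library size, scaled by TMM factors) at baseline. Cdh5, the defining gene of endothelium, stayed at or below 1.40 CPM in every library. The list of 12 endothelial markers, Cdh5 included, summed to 362 to 492 CPM at baseline. Tie1 (mean 287 CPM), Pecam1 (65.1) and Emcn (38.0) were the highest of them, and the others had means at or below 15.5 CPM. Of the 15 baseline libraries, 7 (column numbers S79 to S85) carry the same tag in their names as 7 of the other 8 (S42 to S70). In all 7 cases the library with the same tag was the best correlated, with r from 0.42 to 0.72 over 8655 genes, and the sexes read from the counts matched. The counts gave 10 male and 5 female baseline libraries where the labels give 8 and 7. Some mice may therefore be counted more than once, and results against the baseline are also given with the 8 libraries S42 to S70 alone where that ends a call. At 24 h, 3 male libraries of the irradiated dmPGE2 group (libraries 5, 6 and 7) and 1 female library (library 3) stood apart from the rest of their group, and results that rest on them are given with and without them. No cut-off for standing apart is given here. These libraries also held the most Ramp3 of their group (1.14 to 10.6 CPM), so Ramp3 results without them are not independent of its level. All baseline libraries carry tags that begin with 5. The irradiated libraries of 24 h carry tags 6-16, 6-28, 6-30 and 7-6. Where libraries of 24 h are set against the baseline, radiation and tag therefore cannot be told apart. P-values measure the spread between libraries.

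On mm10, Ramp3 lies at chr11:6658533-6677475 on the plus strand with 1221 exonic bases, of which 95 overlap the pseudogene Gm11978 on the opposite strand. The libraries carry no strand, so reads in those bases cannot be told apart. Ramp1 lies at chr1:91179822-91225196 (plus strand, 3022 exonic bases), Ramp2 at chr11:101246334-101248250 (plus, 872), Calcrl at chr2:84330627-84425266 (minus, 4736) and Adm at chr7:110627669-110629819 (plus, 1381).

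The 250 bases before the annotated start are shown for Ramp3, the gene with the largest response, for Ramp1, its relative with the highest level, and for Calcrl, their partner, because the genes moved differently after dmPGE2. The sequences are from RefSeq (GRCm38.p6), which held an entry for 4 of the 5 genes, and capitals mark the GC box GGGCGG or its reverse complement CCGCCC.
Ramp3 promoter, chr11:6658283-6658532, plus strand: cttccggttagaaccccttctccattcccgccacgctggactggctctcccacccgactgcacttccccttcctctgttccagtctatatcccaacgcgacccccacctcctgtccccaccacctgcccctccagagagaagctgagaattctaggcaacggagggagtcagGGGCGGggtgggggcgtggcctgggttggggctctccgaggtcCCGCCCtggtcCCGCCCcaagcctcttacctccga
Ramp1 promoter, chr1:91179572-91179821, plus strand: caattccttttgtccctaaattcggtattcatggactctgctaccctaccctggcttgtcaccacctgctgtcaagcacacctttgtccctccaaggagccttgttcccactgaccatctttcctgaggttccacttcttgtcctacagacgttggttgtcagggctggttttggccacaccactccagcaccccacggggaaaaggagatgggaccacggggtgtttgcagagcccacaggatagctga
Calcrl promoter, chr2:84425267-84425516, minus strand: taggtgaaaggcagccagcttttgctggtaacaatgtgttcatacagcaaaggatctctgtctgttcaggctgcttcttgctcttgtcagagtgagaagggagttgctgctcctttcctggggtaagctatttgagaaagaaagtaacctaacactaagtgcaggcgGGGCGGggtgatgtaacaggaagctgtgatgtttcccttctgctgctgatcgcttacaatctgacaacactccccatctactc
The Ramp3 window held 3 GC boxes, beginning 78, 35 and 24 bases before the start, against 1 in Calcrl, 1 in Adm and 0 in Ramp1. Of 32851 mouse promoter windows of this length, 32.7% held at least 1. G and C made up 65.2% of the Ramp3 window, 54% of the Ramp1 window and 48.4% of the Calcrl window, against a median of 52.4% over all windows. On both strands, none of the 4 windows held the full cyclic AMP response element TGACGTCA (in 1.55% of all windows) or its core TGACG (17.8%), of which the full element is one case. None held the hypoxia core ACGTG (16.6%) or the AP-1 site TGACTCA (4.46%) either. These are letter matches in a short window and no more than a description.

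Ramp3 was almost silent in HSC of non-irradiated vehicle mice and became a major RAMP transcript within 1 h of dmPGE2. The 15 baseline libraries held 0 to 0.83 CPM (median 0.08), with no read in 5 of them. In the 7 non-irradiated dmPGE2 libraries Ramp3 stood at 22.3, 37.6, 28.6, 20.4, 57.1, 63.5 and 47.9 CPM. Every dmPGE2 library was thus above every baseline library. The fitted log2 fold change of 7.65 (SE 0.76, edgeR adjusted p = 4.58e-11) was the largest in size of all 14320 genes tested, and it was 7.13 (adjusted p = 1.23e-06) against the 8 baseline libraries S42 to S70. In this comparison 11.1% of all genes were called at an adjusted p below 0.05 (5.28% higher and 5.82% lower), and 3 of the 5 genes described here were: Ramp3 rose, and Calcrl and Ramp2 fell. Baseline libraries held at most 20 reads of Ramp3, so it passed the filter on low counts mainly through treated libraries where it was higher. Its rank, and its calls here and in the later comparisons, are therefore not fully independent of that filter.

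The same high level was seen when dmPGE2 preceded radiation. The 8 irradiated dmPGE2 libraries of 1 h held 54.7, 48.9, 77.7, 109.8, 42.9, 43, 43.5 and 114 CPM of Ramp3. The 8 irradiated vehicle libraries held 0.08, 0.23, 10.2, 1.12, 0.18, 0.19, 0 and 1.48 CPM. The groups did not overlap, although library 3 of the vehicle group (tag 5-24) lay far above its neighbours. The fitted log2 difference of 5.32 ranked as number 7 in size among all genes and was 7.11 without that library; this is the comparison that led to the choice of the genes, and 14.8% of all genes were called in it (7.04% higher and 7.77% lower). Between the irradiated and the non-irradiated dmPGE2 group of 1 h the fitted log2 difference of Ramp3 was 0.75, and the ranges of 42.9 to 114 and 20.4 to 63.5 CPM overlapped. The irradiated group is the one in which Ramp3 was chosen for being high, so this difference has no test either.

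**Figure D1:**
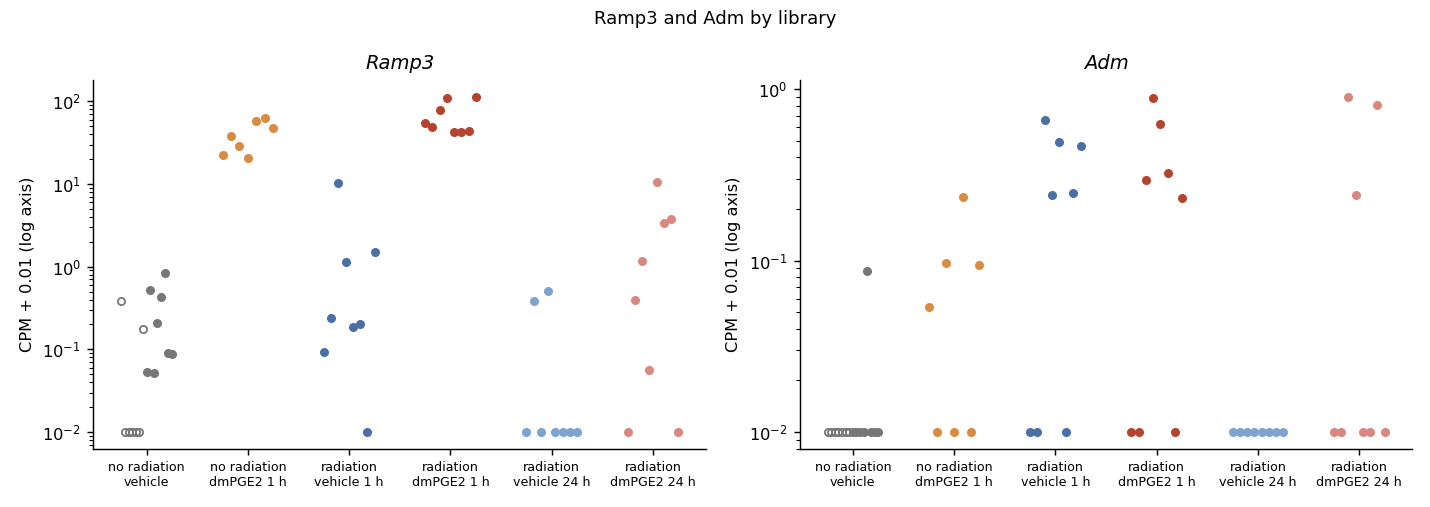
Ramp3 (left) and Adm (right) in each of the 54 libraries, as CPM plus 0.01 on a log axis; each point is 1 library, points at the bottom had no read, and open grey points are the baseline libraries S79 to S85. Ramp3 lies between 20.4 and 114 CPM in both dmPGE2 groups of 1 h and at or below 10.6 CPM in every other library.

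Radiation with vehicle gave a small Ramp3 signal at 1 h that hung on 1 library. The mean was 1.68 ± 3.47 CPM (SD, n = 8) against 0.18 ± 0.25 at baseline (n = 15), and the edgeR log2 fold change was 3.09 (SE 0.78, adjusted p = 0.0034). These irradiated vehicle libraries were one arm of the comparison that led to the choice of the genes, so the test is not independent of that choice. Here 16% of all genes were called (8.65% higher and 7.31% lower), and 2 of the 5, Ramp3 and Adm. Without library 3 the Ramp3 value fell to 1.29 (adjusted p = 0.35), and against the 8 baseline libraries it was 2.57 (adjusted p = 0.088). That library also held 189 CPM of Nr4a1, an immediate early gene that responds to cyclic AMP, where the other 7 held 16.6 to 38.0. Fos, another immediate early gene, was 17.3 CPM there, within the range of the other 7 (9.12 to 80.7), and the part of these values in the Ramp3 result was not tested.

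By 24 h Ramp3 was low again in most mice. The irradiated vehicle libraries held no read in 6 of 8 and 0.37 and 0.50 CPM in the other two. The irradiated dmPGE2 libraries held 0, 0.38, 1.14 and 0.05 CPM in the females and 10.6, 3.35, 3.78 and 0 CPM in the males. The log2 difference of 4.41 (SE 1.07, edgeR adjusted p = 0.0019) therefore rested on male libraries 5, 6 and 7. Without these 3 it was 1.48 (adjusted p = 0.56), and without the female library 3 as well it was 0.00 (adjusted p = 1). In this comparison 23.9% of all genes were called (12.4% higher and 11.5% lower), and 3 of the 5 (Ramp3, Ramp1 and Adm). In library 5, which had the highest Ramp3 level, Socs3, a feedback inhibitor of cytokine signalling, was 655 CPM and Fos was 153 CPM, against 23.2 to 183 and 7.98 to 35.3 CPM in the other 7 libraries. The 3 male libraries also had summed HSC markers of 5084 to 5449 CPM against 3695 to 4396 in the other 5. Their summed endothelial markers were 462 to 494 CPM against 281 to 352, their CREB target genes 821 to 2937 CPM against 457 to 545, and the part of these values in the Ramp3 result was not tested.

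The sexes could be compared at 24 h, with 4 libraries per sex and treatment. No gene of 13714 was called for a difference between the sexes in the response to dmPGE2 (0%) with edgeR, although 1623 had an unadjusted p below 0.05 and DESeq2 called 32. Ramp3 had an interaction of 8.68 on the log2 scale (SE 2.84, males higher, edgeR adjusted p = 0.305). The vehicle males had no Ramp3 read, so the size of this value depends on the prior count. Without dmPGE2 male library 8, which also had no Ramp3 read, the interaction was 9.08 (adjusted p = 0.048) and 877 genes were called. Against the baseline, Ramp3 in the irradiated dmPGE2 libraries of 24 h was higher by 3.6 (SE 0.77, edgeR adjusted p = 2.14e-04). That value was 0.67 (adjusted p = 0.66) without the 3 male libraries and -0.83 (adjusted p = 0.70) without the 4 libraries that stood apart.

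Ordered by mean level, Ramp3 ran from 66.8 CPM (irradiated dmPGE2, 1 h) through 39.6 (non-irradiated dmPGE2), 2.42 (irradiated dmPGE2, 24 h), 1.68 (irradiated vehicle, 1 h) and 0.18 (baseline) to 0.11 CPM (irradiated vehicle, 24 h). Each of these neighbours overlapped, except that the lowest non-irradiated dmPGE2 library (20.4 CPM) lay above the highest irradiated dmPGE2 library of 24 h (10.6 CPM).

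Ramp1, the CGRP receptor subunit, was the dominant RAMP in HSC, and its difference with dmPGE2 at 1 h was far smaller than that of Ramp3. Its baseline level was 204 to 342 CPM (median 258), and the non-irradiated dmPGE2 libraries held 234 to 321 CPM (median 292). The ranges overlapped almost completely, and the log2 difference of 0.09 (SE 0.10, edgeR adjusted p = 0.67) was not called in this fit, which does not use the tag. Baseline libraries S79 to S85 ran higher for this gene (292 ± 36.6 CPM, SD, n = 7) than S42 to S70 (245 ± 33.8, n = 8). With the tag in the library names as a block and the 8 libraries S42 to S70 alone, Ramp1 rose by 0.27 (SE 0.05, edgeR adjusted p = 0.0023). Each non-irradiated dmPGE2 library was above the library of its tag among S42 to S70. Against S79 to S85, those of tags 5-1 and 5-8 were lower. With the block, 2993 genes were called against 1589 without it, and 2604 when the 8 libraries were used as well. After radiation at 1 h, Ramp1 was 204 to 356 CPM with dmPGE2 (median 257) and 205 to 299 with vehicle (median 222), a log2 difference of 0.17.

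A day after radiation Ramp1 was lower than at baseline by more than a factor of 2 in vehicle mice. The 8 irradiated vehicle libraries of 24 h held 96.7 to 141 CPM (median 124), all below the lowest baseline library at 204 CPM. The log2 fold change was -1.17 (SE 0.10, edgeR adjusted p = 7.36e-15), in a comparison where 49.7% of all genes were called (23.3% higher and 26.5% lower) and 2 of the 5 were (Ramp1 and Calcrl, both lower). With dmPGE2 the 8 libraries of 24 h held 110 to 187 CPM (median 157), overlapping the vehicle group but shifted upward by 0.38 (SE 0.11, edgeR adjusted p = 0.0066). They also remained below every baseline library, with a log2 difference of -0.79 (SE 0.10, edgeR adjusted p = 1.72e-09), where 36.4% of all genes were called (19% higher and 17.3% lower) and 4 of the 5 were. These comparisons share libraries and are not independent of each other. With radiation and vehicle at 24 h, 10 of 12 markers of HSC were also lower and 1 higher (summed level 3131 to 4189 CPM against 4221 to 6037 at baseline). Megakaryocyte markers were higher in 4 of 9 there (990 to 2106 CPM against at most 1094 at baseline), 5 of 12 endothelial markers were lower and 1 higher, and the part of these values in the Ramp1 and Calcrl results was not tested. At 1 h radiation with vehicle gave a Ramp1 difference of -0.22 (SE 0.09, edgeR adjusted p = 0.11), which was -0.27 (adjusted p = 0.042) without library 3, the one with the most Ramp1 (299 CPM). By mean, the order was 285 (non-irradiated dmPGE2), 267 (baseline), 258 (irradiated dmPGE2, 1 h), 230 (irradiated vehicle, 1 h), 154 (irradiated dmPGE2, 24 h) and 119 CPM (irradiated vehicle, 24 h). Neighbours overlapped, except that both irradiated groups of 24 h lay below all other libraries. The baseline holds non-irradiated libraries of both times. It shares no tag with the irradiated libraries of 24 h, so radiation and tag cannot be told apart in these differences.

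**Figure D2:**
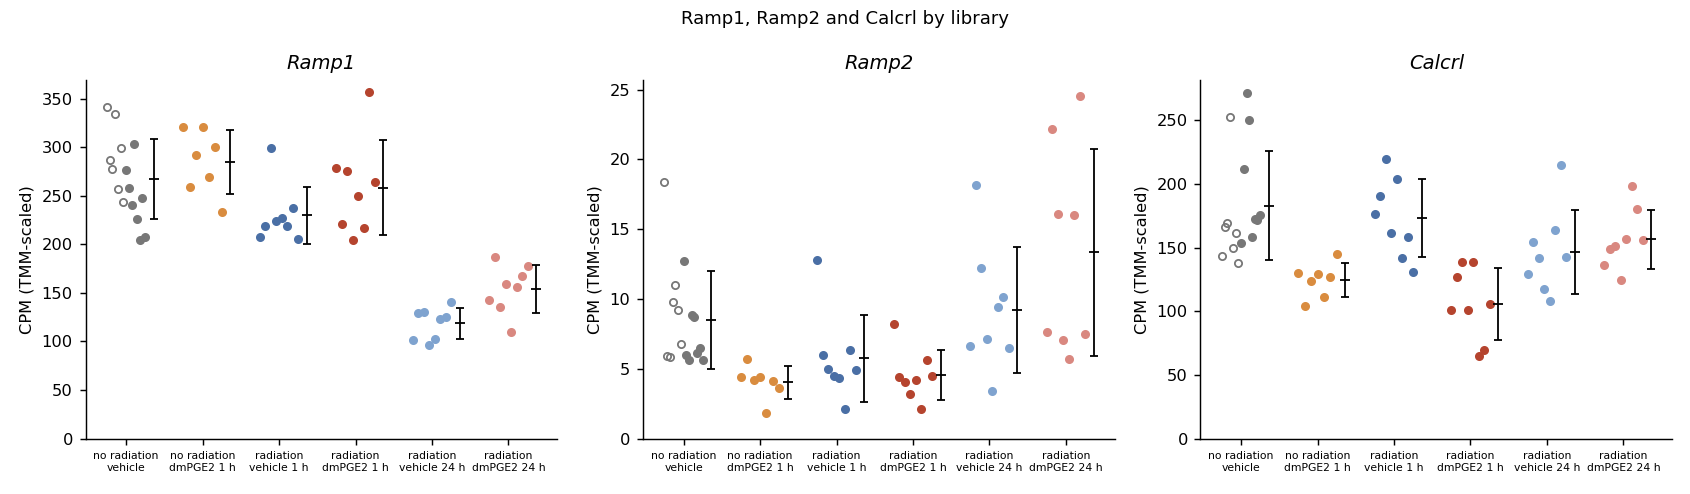
CPM of Ramp1, Ramp2 and Calcrl in each library (points) with the mean and SD of each group (bars) on linear axes from 0; open grey points are the baseline libraries S79 to S85. Ramp1 is at or below 187 CPM in all irradiated libraries of 24 h and at or above 204 CPM in all others, and Calcrl is lower in both dmPGE2 groups of 1 h.

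Calcrl, the receptor itself, fell with dmPGE2. Baseline libraries held 138 to 272 CPM (median 169). The non-irradiated dmPGE2 libraries held 130, 105, 124, 129, 111, 127 and 145 CPM. Only library 7, at 145 CPM, lay within the baseline range. The log2 fold change was -0.56 (SE 0.13, edgeR adjusted p = 0.0022), and it was -0.66 (adjusted p = 0.0015) against the 8 baseline libraries. In irradiated mice of 1 h the vehicle libraries held 131 to 220 CPM (median 169) and the dmPGE2 libraries 64.5 to 139 (median 103), a log2 difference of -0.71, with overlap at the top of the dmPGE2 range.

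At 24 h the Calcrl level no longer differed detectably between treatments. Irradiated libraries of 24 h held 108 to 215 CPM with vehicle (median 142) and 125 to 198 CPM with dmPGE2 (median 154). The log2 difference was 0.09 (SE 0.14, edgeR adjusted p = 0.68). Against baseline, Calcrl was modestly lower in irradiated vehicle libraries of 24 h (log2 fold change -0.32, SE 0.13, edgeR adjusted p = 0.031), with overlapping ranges. These groups share no tag, so radiation and tag cannot be told apart there. Irradiated vehicle libraries of 1 h did not differ detectably from baseline (-0.08, SE 0.12, edgeR adjusted p = 0.77). By mean, the order was 183 (baseline), 173 (irradiated vehicle, 1 h), 157 (irradiated dmPGE2, 24 h), 147 (irradiated vehicle, 24 h), 124 (non-irradiated dmPGE2) and 106 CPM (irradiated dmPGE2, 1 h), and each pair of neighbours overlapped.

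Ramp2, the other adrenomedullin receptor subunit, was scarce and moved against Ramp3 at 1 h. Baseline libraries held 5.62 to 18.4 CPM (median 6.80). The non-irradiated dmPGE2 libraries held 4.39, 5.72, 4.21, 4.40, 1.80, 4.15 and 3.64 CPM. Only library 2, at 5.72 CPM, reached the bottom of the baseline range. The log2 fold change was -1.07 (SE 0.30, edgeR adjusted p = 0.0115). Against the 8 libraries S42 to S70 it was -0.90 (adjusted p = 0.088), and -0.85 (adjusted p = 0.011) when the tag was used as a block as well. After radiation at 1 h the medians were 4.93 CPM with vehicle (2.09 to 12.8) and 4.33 with dmPGE2 (2.12 to 8.24), a log2 difference of -0.34. Radiation with vehicle at 1 h gave -0.56 (SE 0.28, edgeR adjusted p = 0.18). With the tag as a block this difference was -0.56 as well (SE 0.16, edgeR adjusted p = 0.0125), and with the block and 8 baseline libraries it was -0.49 (adjusted p = 0.13).

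The Ramp2 level followed the tag in the library names more closely than the treatment at 24 h. The 8 libraries with tags 6-28 and 6-30 held 9.40 to 24.6 CPM, whichever sex and treatment they had. The 8 with tags 6-16 and 7-6 held 3.44 to 7.66 CPM, with no overlap; this grouping was noticed in the values, so it carries no test. Within this spread the dmPGE2 difference at 24 h was 0.53 (SE 0.31, edgeR adjusted p = 0.21), and with the tag as a block it was 0.49 (SE 0.20, adjusted p = 0.13). Of the 8 pairs of libraries that share a tag and a sex, Ramp2 was higher with dmPGE2 in 7, a count made after the values were seen. The rise against baseline of 0.65 (SE 0.27, edgeR adjusted p = 0.047) was lost without any 1 of dmPGE2 libraries 2, 3, 6 and 7, at 0.47 to 0.61, which are the libraries with tags 6-28 and 6-30. It was 0.51 (adjusted p = 0.18) without libraries 5, 6 and 7. Among the baseline and the groups of 1 h, both baseline libraries and the irradiated vehicle library with tag 5-1 were the highest of their groups (18.4, 12.7 and 12.8 CPM), while the dmPGE2 libraries of that tag were at 4.21 and 4.45 CPM. By mean, Ramp2 ran from 13.3 (irradiated dmPGE2, 24 h) and 9.21 (irradiated vehicle, 24 h) through 8.47 (baseline), 5.74 (irradiated vehicle, 1 h) and 4.54 (irradiated dmPGE2, 1 h) to 4.04 CPM (non-irradiated dmPGE2), and all neighbours overlapped.

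**Figure D3:**
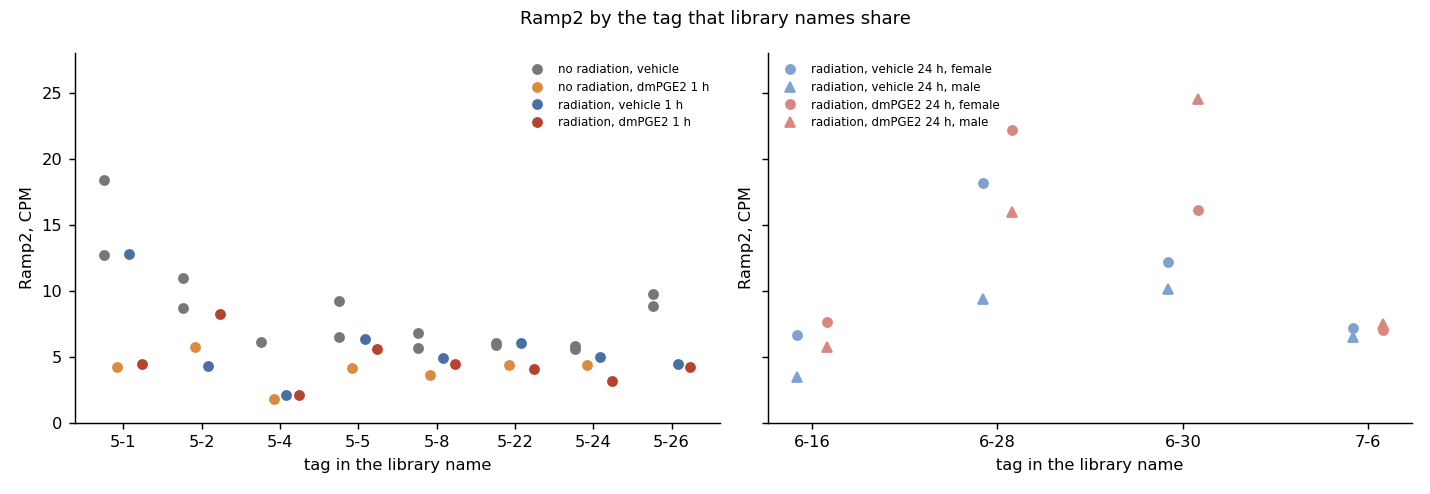
Ramp2 in CPM by the tag in the library name, for 1 h and baseline (left) and 24 h (right, circles female, triangles male); each point is 1 library. At 24 h, tags 6-28 and 6-30 lie between 9.40 and 24.6 CPM and tags 6-16 and 7-6 between 3.44 and 7.66 CPM.

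Adm, the ligand, was at the edge of detection in sorted HSC. The 15 baseline libraries held 2 reads in all, both in 1 library, and the 8 irradiated vehicle libraries of 24 h held none, which allows up to 3 reads. Reads were 0, 0, 14, 5, 11, 0, 6 and 12 in the irradiated vehicle libraries of 1 h. They were 0, 0, 7, 20, 14, 7, 0 and 5 in the irradiated dmPGE2 libraries of 1 h. Non-irradiated dmPGE2 libraries held 0 to 5 reads, and at 24 h with dmPGE2 libraries 3, 4 and 7 held 18, 5 and 14 reads and the other 5 none.

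Read counts of Adm thus appeared above the baseline in 5 of 8 irradiated libraries of each treatment at 1 h. The edgeR test called Adm higher with radiation and vehicle at 1 h (adjusted p = 7.1e-04, and 0.039 against the 8 baseline libraries). It called it at 24 h for dmPGE2 against vehicle (adjusted p = 0.0036), where the pooled level of 0.23 CPM was at least 13-fold higher than 3 reads over the vehicle group would be. Fitted fold changes of Adm depend on the prior count and are not given as sizes. Baseline libraries held at most 0.08 CPM and irradiated vehicle libraries of 24 h held no read. Adm thus passed the filter on low counts only through treated libraries where it was higher. Its calls are not independent of that filter and are given as a description. Without the 4 libraries of 24 h that stood apart, the call at 24 h was lost (adjusted p = 0.13). The non-irradiated dmPGE2 group did not pass the test (adjusted p = 0.12). PCR copies cannot be told from separate molecules in these libraries, so intervals on such counts would cover counting error only.

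The balance of RAMP transcripts changed accordingly. CPM divided by exon length in kilobases (RPKM) allow levels of different genes to be compared. At baseline Ramp1 stood at 88.3 RPKM, Ramp2 at 9.71, Ramp3 at 0.15 and Calcrl at 38.6. In non-irradiated dmPGE2 libraries Ramp3 reached 32.5 RPKM, above Ramp2 (4.64) and close to Calcrl (26.2), with Ramp1 at 94.3. Ramp1 remained the most abundant RAMP in mean RPKM in all 6 groups.

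Ramp3 made up 0.168% ± 0.249 of RAMP mRNA at baseline (SD, n = 15) and 24.4% ± 9.14 after dmPGE2 without radiation (n = 7, range 13.1 to 33.9%). The difference had p = 1.17e-05 in an exact two-sided permutation test (adjusted over 2 comparisons 2.35e-05), the smallest value that 170544 relabellings can give. That test treats the 15 baseline libraries as separate mice, which some may not be. Against the 8 libraries S42 to S70 (0.267% ± 0.304) the exact permutation p was 3.11e-04, the smallest value that 6435 relabellings can give. In irradiated mice of 1 h the share was 36.7% ± 11.3 with dmPGE2 (n = 8) and 1.36% ± 2.5 with vehicle (n = 8). In libraries 4 and 8 of the irradiated dmPGE2 group Ramp3 was the larger part, at 55.8% and 50.3%. At 24 h it was 3.26% ± 5.71 with dmPGE2 and 0.187% ± 0.374 with vehicle (exact two-sided permutation p = 0.0499, the same after adjustment). Without the 3 male libraries the dmPGE2 mean was 0.376% (exact permutation p = 0.499).

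The sum of the 3 RAMPs was 98.2 RPKM at baseline, 131 with dmPGE2 without radiation, and at 24 h after radiation 49.9 with vehicle and 68.3 with dmPGE2. Per Calcrl transcript the sum was 2.65 ± 0.718 at baseline (SD, n = 15), 5.06 ± 0.718 with dmPGE2 without radiation (n = 7), 6.97 ± 2.26 with dmPGE2 and radiation at 1 h (n = 8) and 2.33 ± 0.289 with vehicle and radiation at 1 h (n = 8). At 24 h it was 1.64 ± 0.256 with vehicle and 2.08 ± 0.376 with dmPGE2 (n = 8 each). These ratios describe mRNA, not receptor complexes, and were not tested. In sorted cells, fewer cells that carry a transcript and less of it per cell cannot be told apart.

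**Figure D4:**
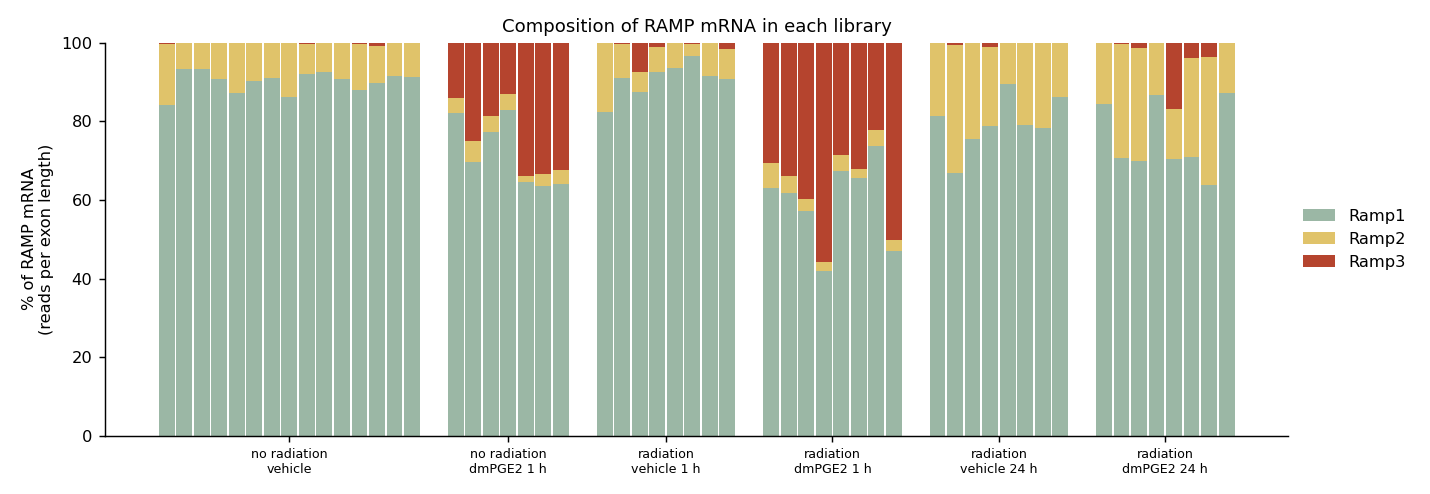
Share of RAMP mRNA (reads per exon length) that was Ramp1, Ramp2 or Ramp3, as 1 stacked bar per library that sums to 100%. Ramp3 takes 13.1 to 55.8% in the dmPGE2 libraries of 1 h, at most 7.38% in irradiated vehicle libraries of 1 h, and 16.8% in a single dmPGE2 library of 24 h.

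The relatives of these genes gave no call with dmPGE2, in a list too short to read against the share of all genes. Of 12 genes of the calcitonin receptor family, its ligands and processing enzymes, 6 passed the filter, and none was called in any comparison of dmPGE2 with vehicle (0 of 6 each, where 11.1%, 14.8% and 23.9% of all genes were called). Their median log2 difference was 0.02 without radiation, against 0.00 over all genes. The nearest to a call was Calca, which encodes calcitonin and CGRP, at 0.22 CPM against 0.03 CPM at baseline (log2 difference 2.75, edgeR adjusted p = 0.062). Calcr, the calcitonin receptor that also pairs with RAMPs, had a mean of at most 0.04 CPM in every group, and Iapp, the amylin gene, had no read in any library.

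At 24 h after radiation with vehicle, 2 of these 6 genes rose and 1 fell, a share near the 49.7% of all genes called there. Calca went from 0.03 to 0.20 CPM (log2 fold change 2.68, edgeR adjusted p = 0.018), and with dmPGE2 it stood at 1.39 ± 1.59 CPM (SD, n = 8), 5.38 above baseline (adjusted p = 1.24e-05). Crcp, a component needed for CGRP receptor signalling, rose by 0.27 (adjusted p = 0.020). Ece1, a peptidase that degrades CGRP in endosomes, changed by -0.37 (adjusted p = 0.042). Of 11 other receptors known to bind RAMPs, 3 were tested. Vipr2, a receptor for vasoactive intestinal peptide, was the one called at 24 h, at -0.64 with vehicle (adjusted p = 4.0e-05) and -0.54 with dmPGE2 against baseline (adjusted p = 7.3e-04), and none was called at 1 h.

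Downstream of Gs, 25 genes of the cyclic AMP machinery were tested. With dmPGE2 without radiation 6 rose and 1 fell, the median being 0.06, where 11.1% of all genes were called. The risers with the largest changes were Crem, a cyclic AMP-responsive repressor (8.48 to 110 CPM, log2 fold change 3.69), Pde4d (1.96) and Pde4b (1.80), phosphodiesterases that degrade cyclic AMP. The gene that fell, the adenylyl cyclase gene Adcy2, had a log2 fold change of -3.37 (edgeR adjusted p = 0.037) at means of 0.12 CPM at baseline and 0.0071 CPM with dmPGE2. The 16 tested CREB target genes, which share Crem, Pde4b and Pde4d with that list, had 11 risers and 1 faller, with a median of 2.07. Nr4a1 rose by 5.34 (from 12.6 to 513 CPM), Sik1, a kinase that feeds back on CREB coactivators, by 4.10, and Nr4a3 by 3.70. At 24 h with dmPGE2 against vehicle, 7 of the 25 rose, among them Pde4b (1.34), Crem (1.21) and Akap13 (0.90), and 5 fell. Of all genes, 23.9% were called there (12.4% higher and 11.5% lower).

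Of 11 tested genes for desensitisation and sorting of receptors, 1 rose with dmPGE2 without radiation, Rab5a of early endosomes (0.39, edgeR adjusted p = 0.0034). That share is near the 11.1% of all genes called in this comparison. Nsf, whose protein binds the RAMP3 tail, was not called there (0.14, adjusted p = 0.36). It rose at 24 h with radiation and vehicle (85 to 136 CPM, log2 fold change 0.68, adjusted p = 4.07e-10) and stood at 186 CPM with dmPGE2 (0.45 above vehicle, adjusted p = 2.95e-04). Arrb1, encoding beta-arrestin 1, was lower at 24 h by -0.81 with vehicle (adjusted p = 5.88e-07) and by -0.78 with dmPGE2 against baseline (adjusted p = 2.17e-06).

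Genes whose log2 CPM resembled Ramp3 most over the 54 libraries, among 10762 genes, were Plaur, the urokinase receptor (Pearson r = 0.95), Nr4a1 (0.93), Isca1 (0.93), Slc3a2, a heavy chain of amino acid transporters (0.93), and Cebpb, a transcription factor (0.92). Plaur went from 14 ± 5.81 CPM at baseline (SD, n = 15) to 406 ± 75.2 with dmPGE2 without radiation (n = 7) and 51.2 ± 52.3 at 24 h with dmPGE2 (n = 8). The likeness is carried by the dmPGE2 groups of 1 h, which these genes share with Ramp3. With the group means removed the nearest were Dhrs3 (0.74), Nceh1 (0.71), Spi1 (0.70), Ctla2a (0.70) and Ifngr1 (0.68). Each of these had its largest SD in the irradiated dmPGE2 group of 24 h, which holds the libraries that stood apart. Dhrs3 was 25.6 ± 26.4 CPM and Ctla2a 1235 ± 1071 CPM there (SD, n = 8). These correlations were not computed without those libraries. Ramp1 was nearest to Def8 and Mamdc2 (0.89 each), Calcrl to Golph3l and Zfp119a (0.79 each), and Ramp2 to Hacd4 (0.78) and to Cldn5 (0.71), a tight junction gene. The libraries in these correlations share groups, tags and depth, and Adm, with few reads, reached at most 0.57.

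Markers of other cells gave the following values beside these results. With dmPGE2 without radiation, 0 of 12 endothelial markers rose and 1 fell (Cldn5), and their summed level was 342 to 492 CPM against 362 to 492 at baseline. None of the 11 neutrophil, 10 macrophage and monocyte and 8 stromal markers was called there, where 11.1% of all genes were. At 24 h with dmPGE2 against vehicle, 6 of 9 megakaryocyte markers were lower and 1 higher, with a median log2 difference of -0.71 and a summed level of 587 to 1426 CPM against 990 to 2106. In the same comparison 5 of 12 HSC, 3 of 12 endothelial, 3 of 11 neutrophil, 2 of 10 macrophage and monocyte and 4 of 8 stromal markers were higher and none of these was lower. Of all genes, 23.9% were called there (12.4% higher and 11.5% lower), and lists this short cannot be read closely against that share. The summed neutrophil level was 281 to 924 CPM against 89.1 to 607, that of stromal markers 32.1 to 415 against 19.0 to 74.4, and that of endothelial markers 281 to 494 against 305 to 375. Their part in the 24 h values of Ramp1, Ramp2, Ramp3 and Adm was not tested.

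Radiation at 1 h called 0.377% of all genes under dmPGE2 (0.356% higher and 0.0209% lower), where it called 16% with vehicle; the difference between these effects was not tested. Gdf15, a stress-induced cytokine, stood at 842 to 1556 CPM in irradiated vehicle libraries of 1 h, at 14.2 to 99.9 CPM in irradiated dmPGE2 libraries of 1 h and at or below 2.88 CPM in the non-irradiated ones. Ramp1 differed by -0.14, Ramp2 by 0.17 and Calcrl by -0.23 between the irradiated and non-irradiated dmPGE2 groups, given as a description because the irradiated group is an arm of the comparison that led to the choice of the genes.

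**Figure D5:**
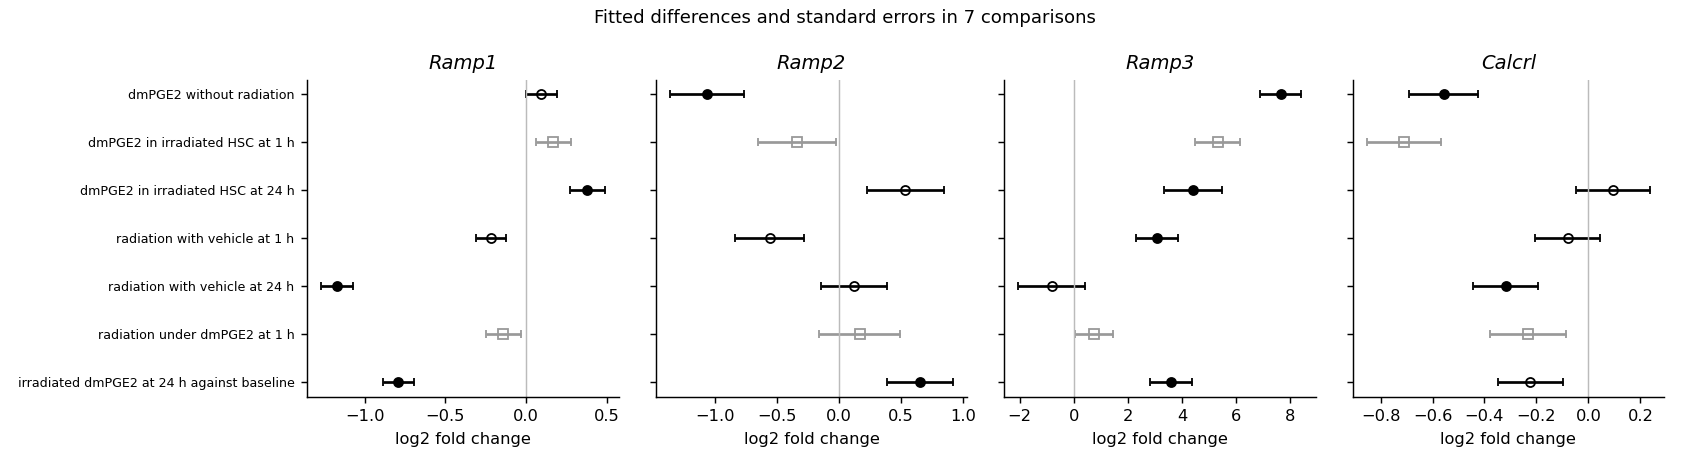
Fitted log2 fold change (points) and SE (bars) of Ramp1, Ramp2, Ramp3 and Calcrl in the 7 comparisons, each panel with its own axis; filled points passed an edgeR adjusted p below 0.05, open circles did not, and grey squares, which carry no test, mark the comparison that led to the choice of the genes and the other one with its irradiated dmPGE2 group of 1 h. Ramp3 reaches 7.65 with dmPGE2 without radiation while Ramp2 and Calcrl are below 0 there, and Ramp1 is lowest at 24 h after radiation (-1.17).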

How the data were processed

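The 5 genes, gene lists and comparisons were chosen with earlier results of these data known. RNA of sorted HSC was made into libraries with SMART-Seq v4 and Nextera XT, per the labels' protocols, which mark no strand and carry no molecular identifiers. Reads were aligned to mm10 with STAR 2.5.2b and counted with featureCounts (Subread 1.5.1); the submitters' processing notes name these tools. What the authors deposited is raw integer read counts per gene, with no scaling, per the file headers. Columns were assigned to groups by treatment, radiation and time in their names and the number of samples the labels give; columns of 1 h name no time, and those assigned rest on the named 24 h columns filling the irradiated groups. Baseline columns name no time, so both times were pooled. At 1 h, columns name no sex.

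The test was the quasi-likelihood test of edgeR 4.0.16 (R 4.3.3) over all 54 libraries and 6 groups (TMM scaling, filterByExpr with a count minimum of 10, robust, 48 residual degrees of freedom), with Benjamini-Hochberg adjustment over 14320 genes and calls at an adjusted p below 0.05. SE was derived as the size of a log2 fold change over the root of its F. Log2 CPM used a prior count of 3. On simulated counts for dmPGE2 without radiation, 83.6% of genes changed by a fold of 2 were recovered (14135 genes), and 55.2% of those changed by a fold of 1.5. Same-tag libraries deviated together at 1 h between non-irradiated dmPGE2 and baseline S42 to S70 (lowest r 0.36), irradiated vehicle and baseline S42 to S70 (0.23) and the irradiated groups (0.17), so the tag served there as a block. The same-tag library was the best correlated in 7 of 7, 4 of 8 and 4 of 8 cases, in that order. Between different tags r reached 0.47, 0.55 and 0.46, so the pairing was not clean. Alternatives were DESeq2 1.42.0, no filter, a test against a fold of 1.5, only the groups compared, the block, and leaving out libraries. All 5 genes are named. Of each list, up to 4 called genes with the largest change per comparison were named, plus, chosen after their values were seen, Nsf, Rab5a, Arrb1, Calcr and Iapp. Nr4a1, Fos, Socs3 and Gdf15 beside single libraries were also chosen so. Promoter sequences are from RefSeq.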

Additional observations from a re-analysis of the deposited data

Results flagged for a closer look

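Of 24 sets of libraries (a gene in a group of 4 to 10), 5 held a library farther from its neighbours than the 95% limit of Dixon's test, where chance gives about 1 in 20. Ramp3 was 10.18 CPM in irradiated vehicle library 3 of 1 h (tag 5-24) and 10.63 CPM in irradiated dmPGE2 library 5 of 24 h (tag 6-16). Ramp1 was 298.7 CPM in the same vehicle library 3. Ramp2 was 12.8 CPM in irradiated vehicle library 1 of 1 h (tag 5-1). Adm was 0.2251 CPM, 5 reads, in non-irradiated dmPGE2 library 5 (tag 5-4).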

How the results depend on the processing

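Of the alternatives run, 556 values kept their side of the threshold (counts within 1.5 times, untested values of irradiated 1 h within the SD inside groups). An uncalled log2 difference that changed sign was counted among these. Another 24 lost a call, 4 gained one, and 19 counts or untested values moved past those limits. The 1 called value that reversed was Ramp3 at 24 h with dmPGE2 against baseline, -0.8257 without the 4 libraries that stood apart. The cause was not tested for any change. The 8 baseline libraries, summed tags, and leaving out vehicle library 3 of 1 h or single dmPGE2 libraries of 24 h were added after seeing the data.

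Tested against a fold of 1.5, 184, 266, 273, 326, 1430, 18 and 719 genes were called in the 7 comparisons (without radiation, irradiated 1 h, irradiated 24 h, radiation 1 h, radiation 24 h, radiation under dmPGE2, 24 h dmPGE2 against baseline), and calls were lost for Ramp2 (-1.065) and Calcrl (-0.5576) with dmPGE2 without radiation, Ramp1 (0.3791) with dmPGE2 at 24 h, Calcrl (-0.3189) with radiation at 24 h, and Ramp1 (-0.7912) and Ramp2 (0.6549) against baseline.

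With 8 baseline libraries, radiation at 1 h called 1244 genes, and Ramp2 without radiation (-0.8992) and Ramp3 with radiation at 1 h (2.569) were not called. The replicate block by tag gave 2993 calls without radiation (2604 with 8 baseline libraries, where Ramp1 was called at 0.2685), and Ramp2 was called at -0.561 with radiation at 1 h. Same-tag libraries had a lowest r of 0.09 between the dmPGE2 groups of 1 h and of -0.01 at 24 h. They were the best correlated in 5 of 7 and 4 of 8 cases. There the block gave 83 calls for radiation under dmPGE2 and 1352 at 24 h. It changed no other call; Ramp3 did not pass the filter in the blocked fits at 24 h and for radiation at 1 h, nor Adm in any of them.

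For dmPGE2 at 24 h, 1507 genes were called with only these groups, 1815 with sex as a term, 1123 without the 3 males (Ramp3 1.482, its share difference 0.1888 percentage points) and 854 without all 4 (Ramp3 0.001123, Adm 3.517). Against baseline, Ramp2 was not called with no filter (0.6439), only 2 groups (0.6481), baseline libraries of 1 tag summed (0.6806), without the 3 males (0.5128, Ramp3 0.6685) or all 4 (0.3816, Adm 2.517), nor without dmPGE2 library 2, 3, 6 or 7 (0.4708 to 0.7562 over all single libraries left out). Without vehicle library 3 of 1 h, Ramp3 was 7.111 with dmPGE2 and 1.289 with radiation, and Ramp1 -0.2736. For the sexes, DESeq2 called 32 genes, and leaving out single libraries gave 0 to 877 calls, with Ramp3 from 7.769 to 10.11. Without dmPGE2 library 8, which leaves only the 3 males that stood apart, Ramp3 was called, at 9.084. The 3 males were not left out of the sex comparison, which would leave 1 male in that group.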

Other observations

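The list of 16 hypoxia-responsive genes, to which Adm is often counted, rose in part with dmPGE2 while Adm did not pass the test without radiation. With dmPGE2 without radiation 6 of 16 rose and none fell, with a median of 0.27. Vegfa, an angiogenic growth factor, rose by 3.03 on the log2 scale (10.8 to 88.1 CPM), Ddit4, an inhibitor of mTORC1, by 3.02, Egln3, an oxygen-sensing prolyl hydroxylase, by 2.86 and Hk2, a hexokinase, by 2.55. Radiation with vehicle at 1 h gave 6 risers and 1 faller, among them Ddit4 (2.54) and Vegfa (2.25). At 24 h with dmPGE2 against vehicle 3 rose and 1 fell, and Hk2 (1.15) and Slc2a1, a glucose transporter (1.01), had the largest differences. Of all genes, 11.1%, 16% and 23.9% were called in these comparisons, in that order.

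Across the 54 libraries, Ramp3 and Calcrl had a correlation of log2 CPM of -0.54 and Ramp3 and Ramp2 of -0.45, but with group means removed these were 0.15 and 0.07. Ramp1 and Ramp2 went from -0.24 to 0.44 when group means were removed. The libraries share groups, tags and depth.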
